A study of Rattus norvegicus with 18 samples.

Results

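The genes described here encode the receptors for dopamine (Drd), serotonin (Htr), histamine (Hrh), adrenaline and noradrenaline (Adra, Adrb) and acetylcholine (the muscarinic Chrm and the nicotinic Chrna and Chrnb genes). They were chosen by symbol alone: a row of the count table was taken if its symbol began with 1 of these family names followed by a digit, and it was kept if at least 3 libraries held at least 10 reads. Of 17455 gene symbols in the table, 50 fitted the name, 42 were kept and 41 also passed the filter on low counts and were tested, among 13338 genes tested in all.

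The animals were adult male Sprague-Dawley rats, and the RNA sequenced came from their left hippocampus, taken 24 hours after the last seizure. In the kindling (KI) model, repeated electrical stimulation through hippocampal electrodes was used to establish seizures. In the kainic acid (KA) model, electrodes were implanted and kainic acid, which activates some glutamate receptors, was injected in rising doses. The injections were meant to bring on status epilepticus, a prolonged seizure. The libraries were labelled KI 3 Class V (n = 4), KI sham (n = 4), KA 3 Class V (n = 3) and KA sham (n = 7), and the sources used here do not explain "3 Class V" further or say what each sham received. The KI 3 Class V libraries are also called kindled below. The labels do not say whether each library is from its own animal, so the p-values measure the spread between these libraries, which may be partly technical.

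Most of these receptors are coupled to G proteins. The Gs-coupled ones, such as the D1-like dopamine receptors, raise cyclic AMP, the Gi-coupled ones, such as the serotonin 1A receptor, lower it and open potassium channels, and the Gq-coupled ones, such as the serotonin 2A and muscarinic M1 receptors, act through phospholipase C. The nicotinic receptors and the serotonin 3 receptor are ion channels built of several subunits. In the hippocampus they receive fibres whose cell bodies lie elsewhere, in the raphe nuclei, locus coeruleus, ventral midbrain, posterior hypothalamus and basal forebrain.

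Total counts ran from 36117956 to 41195373 in KI 3 Class V, from 30925368 to 38850420 in KI sham, from 37172455 to 49943021 in KA 3 Class V and from 32150130 to 42619628 in KA sham. Levels are given as CPM, read counts scaled to a common library size, and differences as log2 fold changes ± SE from edgeR's quasi-likelihood test, with p-values adjusted over the 13338 tested genes and called below 0.05. CPM is not corrected for transcript length, so levels are compared between libraries and not between genes. Tissue was bulk, so fewer cells of a type and less RNA per cell cannot be told apart. Of 8 markers of pyramidal and granule cells 7 were well detected and Spink8 was near 0 (at most 0.380 CPM). Their summed levels were 2845 to 3858 CPM in KI 3 Class V against 2151 to 2625 CPM in KI sham, and of 2173 to 2518 CPM in KA 3 Class V against 2087 to 3536 CPM in KA sham. KI sham 1 and KI sham 4 stood apart from the other KI shams, as described below for the genes they touch. KI sham 1 was the lowest of all 18 libraries in 19 of 41 receptor genes, and it was also the lowest in 24.6% and the highest in 19.4% of all genes tested.

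Promoter windows of 4 receptor genes are shown for reference, and no result rests on the windows. Drd5 rose in kindled hippocampus while its D1-like relative Drd1 did not pass the test. Chrna3 and its neighbour Chrnb4 were high together in 1 library. The part of the windows in these levels was not tested. The windows run from 250 bases before to 50 after the annotated start, 5′ to 3′ on the gene's strand, from RefSeq on build GRCr8. Capitals mark the GC box GGGCGG on either strand.
Drd5 (chr14:76703295-76703594, minus strand): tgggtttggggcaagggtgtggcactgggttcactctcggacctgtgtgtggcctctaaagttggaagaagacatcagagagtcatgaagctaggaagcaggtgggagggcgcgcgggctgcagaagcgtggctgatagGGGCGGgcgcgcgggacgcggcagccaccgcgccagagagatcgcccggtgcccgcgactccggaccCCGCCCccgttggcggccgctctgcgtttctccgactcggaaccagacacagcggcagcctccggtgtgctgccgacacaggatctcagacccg
Drd1 (chr17:10546354-10546653, plus strand): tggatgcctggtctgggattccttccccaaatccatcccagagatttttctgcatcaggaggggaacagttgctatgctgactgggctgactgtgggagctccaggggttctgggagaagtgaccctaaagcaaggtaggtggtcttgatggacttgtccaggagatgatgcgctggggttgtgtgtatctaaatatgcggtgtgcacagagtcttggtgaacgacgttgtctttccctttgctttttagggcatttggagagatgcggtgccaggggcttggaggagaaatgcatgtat
Chrna3 (chr8:64311202-64311501, minus strand): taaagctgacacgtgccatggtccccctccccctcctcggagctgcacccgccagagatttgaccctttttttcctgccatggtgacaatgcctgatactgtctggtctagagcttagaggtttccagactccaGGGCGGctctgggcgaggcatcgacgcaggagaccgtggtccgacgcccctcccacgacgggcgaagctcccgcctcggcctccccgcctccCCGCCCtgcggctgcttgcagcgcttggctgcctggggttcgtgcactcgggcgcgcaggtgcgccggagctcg
Chrnb4 (chr8:64333060-64333359, minus strand): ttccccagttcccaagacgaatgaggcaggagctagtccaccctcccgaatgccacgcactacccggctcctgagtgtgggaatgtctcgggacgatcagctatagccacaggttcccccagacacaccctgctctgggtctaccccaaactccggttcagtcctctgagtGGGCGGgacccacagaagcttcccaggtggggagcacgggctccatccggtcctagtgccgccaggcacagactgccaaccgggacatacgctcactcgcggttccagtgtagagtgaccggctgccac

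The Drd5 and Chrna3 windows each held 2 GC boxes, the Chrnb4 window held 1 and the Drd1 window held 0. Windows were at hand for 38 of the 50 symbols and 31 of the 42 kept genes. Among those 31, 20 held at least 1 GC box, against 33.1% of all 33469 windows. The cAMP response element TGACGTCA was found in 0 of the 31 and in 1.83% of all windows, and the AP-1 motif TGANTCA in 0 of the 31 and in 7.33% of all windows, both strands searched and N standing for any base. A match or its absence describes the letters in these windows only. Genes with no matched window included Htr1a, Htr2a, Htr3a, Htr4, Hrh2, Adra1a, Adrb3, Chrm5, Chrna2, Chrna6 and Chrnb3.

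The 8 symbols that fell short of the count rule were Drd3, Htr1d, Htr2b, Htr3b, Hrh4, Chrna6, Chrna9 and Chrna10. Just outside it, Htr1d reached the minimum in 2 libraries, with 10 reads in KA sham 3 and 12 in KA sham 6, and Htr2b also in 2, with 54 reads in KI sham 4 and 12 in KA sham 3. Just inside it, Chrnb3 reached the minimum in 3 libraries, namely KI 3 Class V 4 with 12 reads, KA 3 Class V 2 with 13 reads and KI sham 4 with 214 reads, and was then removed by the filter on low counts. Drd4, the D4 dopamine receptor, reached it in 4 libraries and was tested, with 0 to 14 reads per library.

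In kindled hippocampus, 3 of the 41 tested receptor genes rose, Drd5, Htr2a and Htr1a, 1 fell, Chrna3, and 37 did not pass the test. Over all genes tested, 9.99% were called in this comparison, 4.74% higher and 5.25% lower, so the receptors' share of calls was close to the background. The direction of the estimates was less even: 31 of 41 (75.6%) log2 fold changes were above 0, against 46.8% of all genes, and their median was 0.44, against -0.04 over all genes. There were 12 genes that had every KI 3 Class V library above every KI sham library, which held for 12.1% of all genes, and 0 had every KI 3 Class V library below, which held for 8.07% of all genes. At an unadjusted p under 0.05 there were 16, 13 higher and 3 lower, against 35.4% of all genes, and DESeq2 called 10, against 22.3% of all genes.

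**Figure D1:**
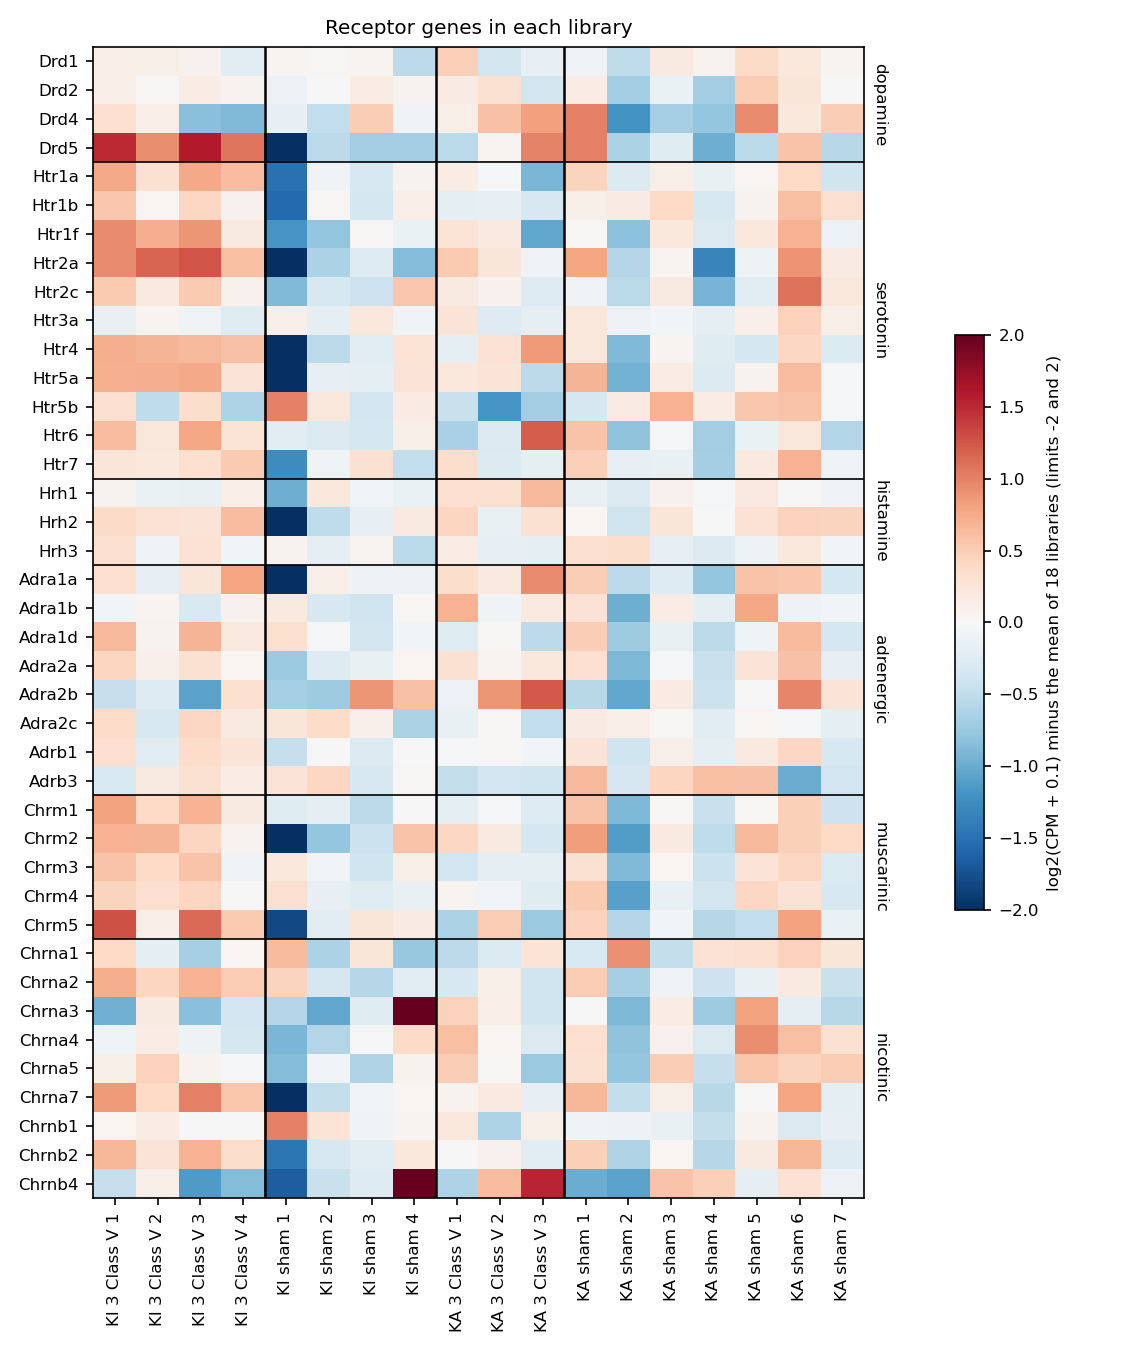
Level of 40 of the 41 tested receptor genes (down the page, by transmitter) in the 18 libraries (across), as log2 of CPM plus 0.1 minus the gene's mean over the libraries. Red is above and blue below that mean, and the colours stop at 2 in either direction. Most serotonin and muscarinic genes are red in the 4 KI 3 Class V libraries and blue in KI sham 1 and KA sham 2, and Chrna3 and Chrnb4 are dark red in KI sham 4.

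Dopamine receptors split by gene. Drd5 encodes the D5 receptor, a D1-like receptor that raises cyclic AMP. Its level was 7.69, 5.16, 8.14 and 5.69 CPM in the KI 3 Class V libraries and 0.450, 1.82, 1.60 and 1.62 CPM in the KI shams. The lowest kindled library was thus well above the highest sham. Drd5 averaged 6.67 ± 1.46 CPM in KI 3 Class V and 1.37 ± 0.622 CPM in KI sham (SD, n = 4 each), a 4.82-fold rise (log2 fold change 2.27 ± 0.48, edgeR adjusted p = 0.0230). After kainic acid, Drd5 had 1.80, 2.75 and 5.38 CPM in KA 3 Class V and 1.30 to 5.44 CPM, with a median of 1.79, in KA sham. These groups overlapped over most of their range, and the difference did not pass the test (0.34 ± 0.44, edgeR adjusted p = 0.843), though it had the smallest p of the dopamine receptors in that model.

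Drd1, the other D1-like receptor and the dopamine receptor with the highest mean CPM, had 5.57, 5.54, 5.41 and 4.35 CPM in KI 3 Class V and 5.29, 5.20, 5.31 and 3.51 CPM in KI sham. The groups overlapped, with a log2 fold change of 0.11 ± 0.21 (edgeR adjusted p = 0.711). Drd2, the Gi-coupled D2 receptor, differed by 0.07 ± 0.24, and Drd4 by -0.44 ± 0.84. In KA 3 Class V against KA sham, Drd1, Drd2 and Drd4 differed by -0.05 ± 0.21, 0.08 ± 0.23 and 0.45 ± 0.68, and 0 of the 4 dopamine genes passed.

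**Figure D2:**
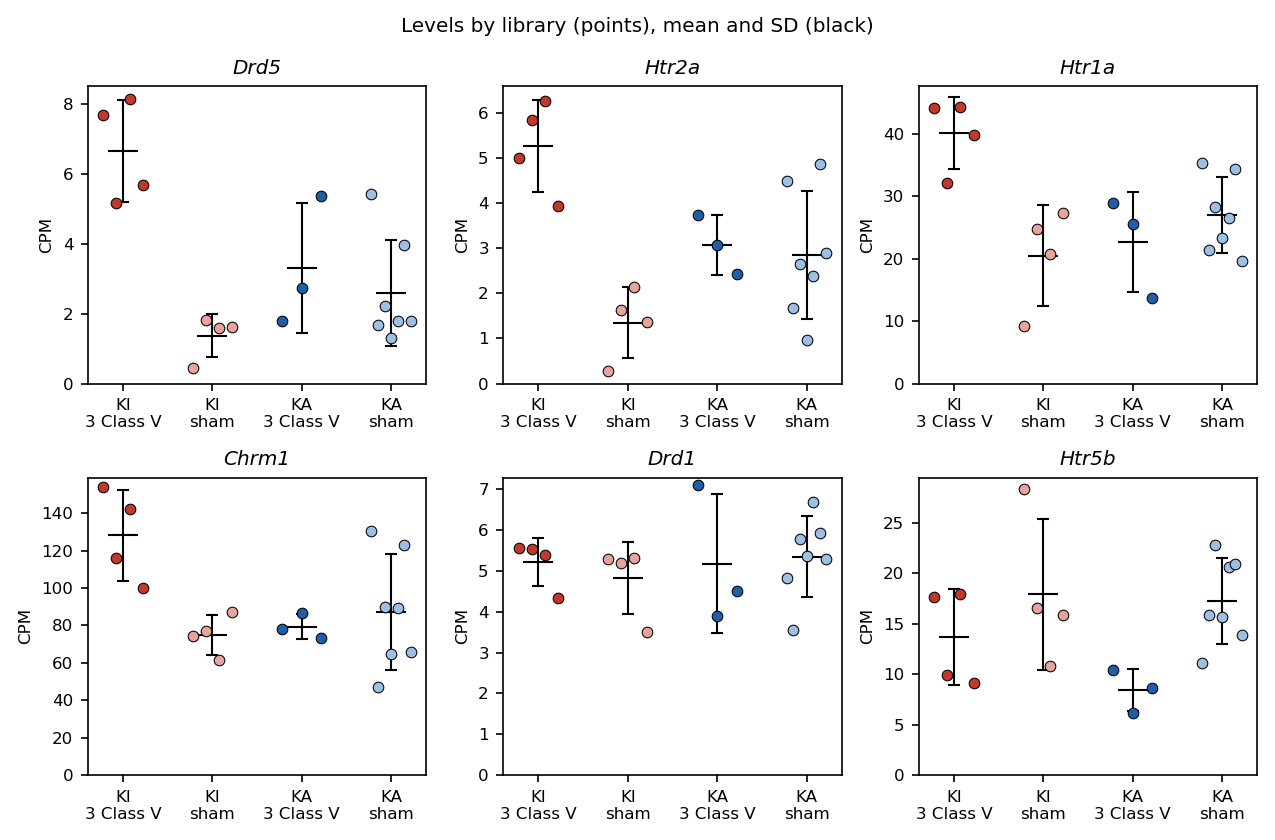
CPM of 6 receptor genes in each library (points), with the mean and SD of each group (black). The 4 groups run left to right as KI 3 Class V, KI sham, KA 3 Class V and KA sham. For Drd5, Htr2a, Htr1a and Chrm1 every KI 3 Class V point lies above every KI sham point, and for Htr5b every KA 3 Class V point lies below every KA sham point.

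Of the 11 tested serotonin receptor genes, 2 rose in kindled hippocampus and 9 did not pass, and their median log2 fold change was 0.68. Htr2a encodes the serotonin 2A receptor, a Gq-coupled receptor. It had 5.01, 5.86, 6.28 and 3.95 CPM in KI 3 Class V and 0.277, 1.63, 2.14 and 1.36 CPM in KI sham, with no overlap. Its means were 5.27 ± 1.03 CPM in KI 3 Class V and 1.35 ± 0.785 CPM in KI sham (SD, n = 4 each), a 3.86-fold rise (1.95 ± 0.47, edgeR adjusted p = 0.0302).

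Htr1a encodes the serotonin 1A receptor, the Gi-coupled receptor that in hippocampal pyramidal cells opens potassium channels. Its level was 44.2, 32.1, 44.2 and 39.8 CPM in KI 3 Class V and 9.16, 24.8, 20.8 and 27.3 CPM in KI sham. The groups did not overlap, and KI sham 1 was the lowest library. The means were 40.1 ± 5.73 CPM in KI 3 Class V and 20.5 ± 8.02 CPM in KI sham (SD, n = 4 each), a 1.95-fold rise (0.97 ± 0.29, edgeR adjusted p = 0.0449).

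The serotonin receptor genes Htr1f, Htr4, Htr5a and Htr6 also had groups without overlap in the KI model, and none of these 4 passed. For Htr1f (Gi-coupled) the log2 fold change was 1.27 ± 0.40 (edgeR adjusted p = 0.0504), from 1.39, 1.18, 1.32 and 0.780 CPM in KI 3 Class V and 0.242, 0.351, 0.688 and 0.609 CPM in KI sham. For Htr4, a Gs-coupled receptor, it was 1.09 ± 0.37 (edgeR adjusted p = 0.0601), from 4.66, 4.51, 4.42 and 4.20 CPM in KI 3 Class V and 0.588, 1.91, 2.38 and 3.37 CPM in KI sham. Both missed the threshold narrowly. Htr5a differed by 0.99 ± 0.43, and the Gs-coupled Htr6 by 0.68 ± 0.36. Htr2c, the serotonin 2C receptor and the serotonin receptor with the highest mean CPM, overlapped between groups, with 61.2, 48.8, 61 and 45.2 CPM in KI 3 Class V and 22.9, 34, 31.8 and 61.5 CPM in KI sham. Negative estimates were those of Htr3a, the channel subunit made by a class of interneurons (-0.12 ± 0.16), and of Htr5b (-0.39 ± 0.30). Htr1b, Htr2c and Htr7 differed by 0.59 ± 0.27, 0.52 ± 0.34 and 0.61 ± 0.30.

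In the KA model 0 of 41 receptor genes were called by edgeR, where 0.172% of all genes were. At an unadjusted p under 0.05 there were 2, against 9.93% of all genes, and DESeq2 and limma-voom each called 1, against 1.91% and 5.44% of all genes. That gene was Htr5b, a serotonin receptor that is functional in rodents. It had 10.4, 6.19 and 8.66 CPM in KA 3 Class V, and from 11.1 to 22.8 CPM with a median of 15.9 in KA sham, so that all 3 lay below all 7. Its means were 8.41 ± 2.11 CPM in KA 3 Class V (SD, n = 3) and 17.3 ± 4.27 CPM in KA sham (SD, n = 7). The log2 fold change was -1.04 ± 0.31, with an adjusted p of 0.174 by edgeR, 0.0353 by DESeq2 and 0.00889 by limma-voom. Groups without overlap in this direction made up 2.70% of all genes. In the KI model Htr5b overlapped, with 17.6, 9.92, 18 and 9.17 CPM in KI 3 Class V and 28.4, 16.6, 10.8 and 15.9 CPM in KI sham. Htr2a and Htr1a differed in the KA model by 0.11 ± 0.44 and -0.25 ± 0.28, and 8 of the 11 serotonin estimates were below 0. Over the 41 genes 16 estimates were above 0, against 48.0% of all genes.

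Histamine receptors gave 0 calls in either model. Hrh3, the presynaptic H3 receptor that restrains transmitter release, had the highest mean CPM of the family, with 130, 99.0, 127 and 100 CPM in KI 3 Class V and 109, 91.0, 108 and 71.2 CPM in KI sham (0.27 ± 0.17, edgeR adjusted p = 0.254). Hrh2, the Gs-coupled H2 receptor, had the smallest p of the family in the KI model. It had 2.27, 2.13, 2.08 and 2.69 CPM in KI 3 Class V and 0.173, 1.18, 1.52 and 1.97 CPM in KI sham, without overlap but with KI sham 1 far below the rest (0.90 ± 0.40, edgeR adjusted p = 0.117). Hrh1, the Gq-coupled H1 receptor, was the receptor gene that lay without overlap above the shams in the KA model, which held for 2.95% of all genes. It had 8.51, 8.38 and 10.6 CPM in KA 3 Class V, and from 5.48 to 7.69 CPM with a median of 6.60 in KA sham (0.48 ± 0.18, edgeR adjusted p = 0.333). In the KI model Hrh1 differed by 0.16 ± 0.19.

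Adrenergic receptors also gave 0 calls among 9 genes in either model, with median log2 fold changes of 0.12 in KI and 0.18 in KA. Adra2a, the Gi-coupled alpha-2A receptor, lay without overlap above the KI shams, though narrowly, with 14.5, 11.5, 13.3 and 11.1 CPM in KI 3 Class V and 6.40, 9.02, 9.71 and 11 CPM in KI sham (0.47 ± 0.25, edgeR adjusted p = 0.175). Adra1d, the Gq-coupled alpha-1D receptor with the highest mean CPM of the family, had 127, 84.7, 130 and 93.1 CPM in KI 3 Class V and 101, 78.7, 62.7 and 78.0 CPM in KI sham. Its groups overlapped (0.44 ± 0.26). Adrb3, the beta-3 receptor, had the smallest p of the family in KA, with 0.517, 0.561 and 0.556 CPM in KA 3 Class V and from 0.331 to 1.24 CPM with KA sham 6 lowest in KA sham (-0.69 ± 0.35, edgeR adjusted p = 0.550). The remaining 5 adrenergic genes lay between -0.79 and 0.70 in KI, and Adra2b, with the widest error, was at 0.97 ± 0.60 in KA.

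All 5 muscarinic genes had positive estimates in the KI model, with a median of 0.77, and 0 passed the test. Chrm1 encodes M1, the Gq-coupled muscarinic receptor of pyramidal cells. It had 154, 116, 142 and 100 CPM in KI 3 Class V and 74.6, 76.8, 61.3 and 87.3 CPM in KI sham, without overlap. The means were 128 ± 24.4 CPM in KI 3 Class V and 75.0 ± 10.7 CPM in KI sham (SD, n = 4 each), with a log2 fold change of 0.77 ± 0.25 that missed the threshold (edgeR adjusted p = 0.0558). DESeq2 called Chrm1 (adjusted p = 0.0215), and limma-voom called all 5, where it called 55.1% of all genes. Chrm2 and Chrm4, both Gi-coupled, differed by 0.92 ± 0.47 and 0.36 ± 0.26, and the Gq-coupled Chrm3 and Chrm5 by 0.41 ± 0.23 and 1.07 ± 0.44. In the KA model all 5 estimates were below 0 and small, from -0.23 to -0.07. Chrm3 had the smallest p there (-0.23 ± 0.23, edgeR adjusted p = 0.782), with 43.8, 49.8 and 50.1 CPM in KA 3 Class V and 30.9 to 76.3 CPM in KA sham.

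**Figure D3:**
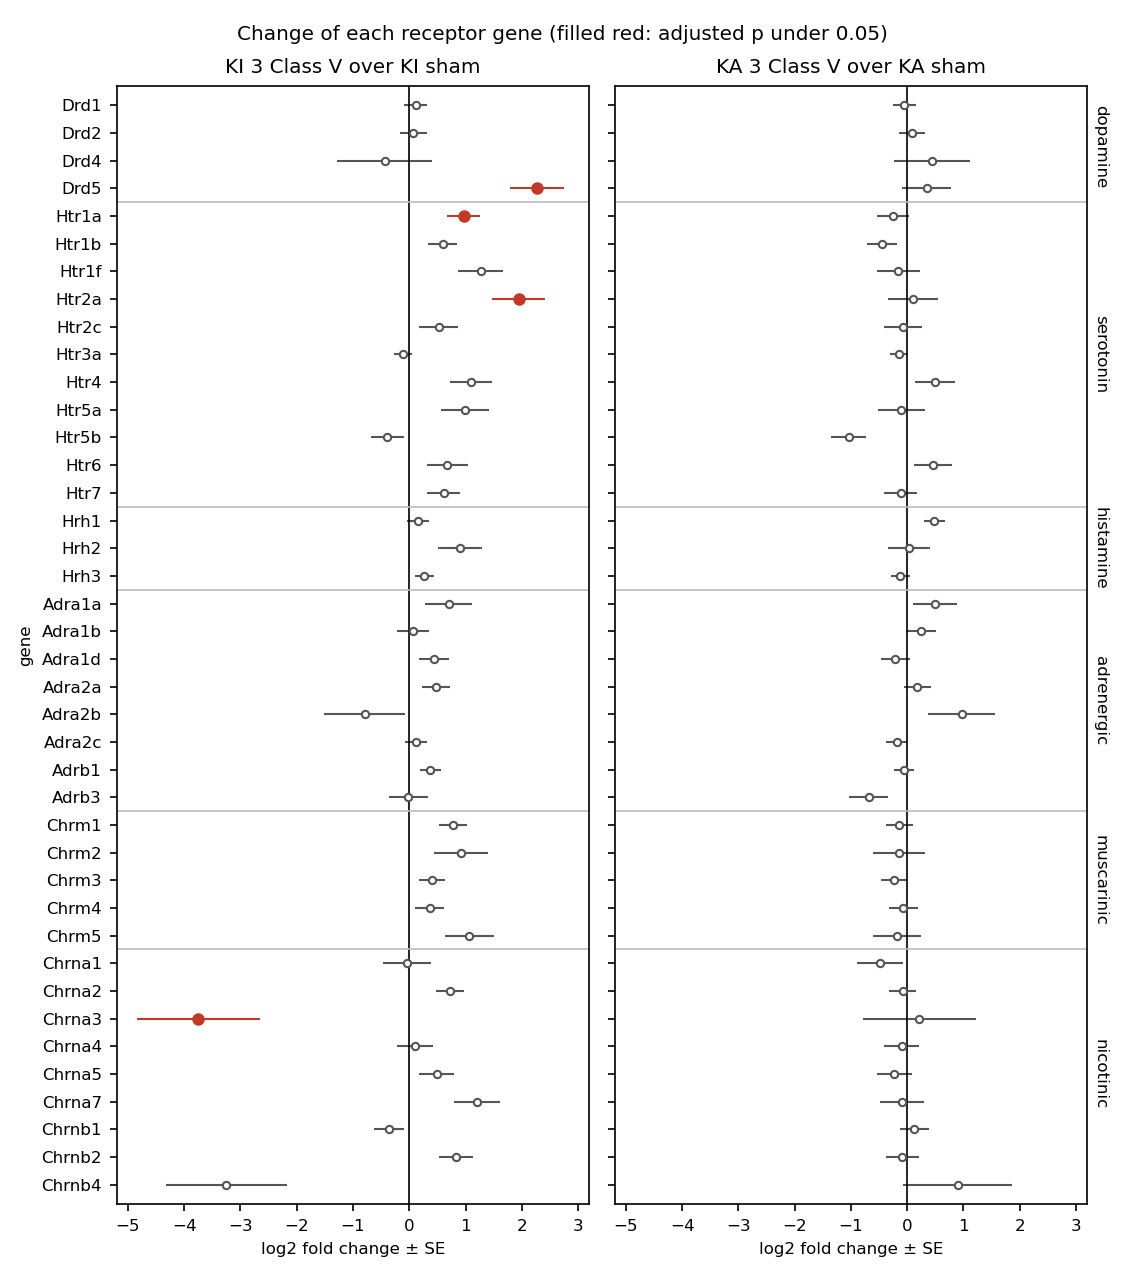
Log2 fold change ± SE of 40 of the 41 tested receptor genes in KI 3 Class V over KI sham (left) and KA 3 Class V over KA sham (right), by transmitter, with filled red points for adjusted p under 0.05. Drd5, Htr1a and Htr2a lie to the right and Chrna3 to the left in KI, and the KA panel has no filled point.

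Among the nicotinic subunits, Chrna3 was called lower in kindled hippocampus and the other 8 tested genes did not pass. The alpha-3 subunit pairs with beta-4, encoded by Chrnb4, in autonomic ganglia and the medial habenula, a region next to the hippocampus. Chrna3 had 0.378, 0.952, 0.422 and 0.614 CPM in KI 3 Class V and 0.519, 0.351, 0.688 and 30.5 CPM in KI sham. The call (-3.75 ± 1.09, edgeR adjusted p = 0.0425) rested on KI sham 4, and without that library the log2 fold change was 0.15. Chrnb4 had 0.283, 0.476, 0.141 and 0.189 CPM in KI 3 Class V and 0.0692, 0.287, 0.344 and 9.67 CPM in KI sham (-3.25 ± 1.08, edgeR adjusted p = 0.0576), and it too was at 0.15 without KI sham 4.

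KI sham 4 held 1303 reads of Chrna3, where the highest of the other 17 libraries held 63, and 413 reads of Chrnb4, where the highest other held 56. Chrnb3 had 214 reads there against at most 13 elsewhere, and Chrna6, whose alpha-6 subunit often joins beta-3, had 14 against at most 1. In the reference annotation Chrna3 lies between Chrna5 and Chrnb4, and Chrna6 lies next to Chrnb3. Chrna5 did not share the pattern: it had 4.52 CPM in KI sham 4, within the 2.32 to 6.35 CPM of the other libraries. The serotonin 2B receptor gene Htr2b was also highest there, at 1.26 CPM against at most 0.266 CPM elsewhere.

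Genes of cholinergic neurons and of regions next to the hippocampus were high in the same library. Chat, the enzyme that makes acetylcholine, had 6.63 CPM in KI sham 4 and at most 0.402 CPM in the other 17. For Slc18a3, the vesicular acetylcholine transporter, these levels were 6.81 and at most 1.77 CPM, and for Slc5a7, the choline transporter, 13.6 and at most 4.24 CPM. Of the habenula list, 3 of 5 markers were in the table. Gpr151, a receptor of habenular neurons, had 18.3 CPM in KI sham 4 and at most 0.367 CPM elsewhere, and Nhlh2 had 5.43 and at most 1.94 CPM, while Tac3 (Tac2 in mouse), at 32.3 CPM, was within the 17.1 to 79.3 CPM of the others. Tcf7l2, a thalamic marker, had 29.4 CPM there and at most 12.6 CPM elsewhere, and Ttr, made by choroid plexus, had 887 CPM there and 4.13 to 572 CPM elsewhere. The summed habenula list ran from 75.0 to 79.8 CPM in KI 3 Class V and from 31.5 to 56.0 CPM in KI sham, and nearly all of it in KI 3 Class V was Tac3, at 72.9 to 77.8 CPM. Without Tac3 the sum was 1.39 to 2.11 CPM in KI 3 Class V and 1.23 to 23.7 CPM in KI sham. The summed thalamus list, 5 of 6 markers, ran from 38.2 to 48.9 CPM in KI 3 Class V and from 38.6 to 100.4 CPM in KI sham. The part of tissue from these regions in the Chrna3 result was not tested.

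**Figure D4:**
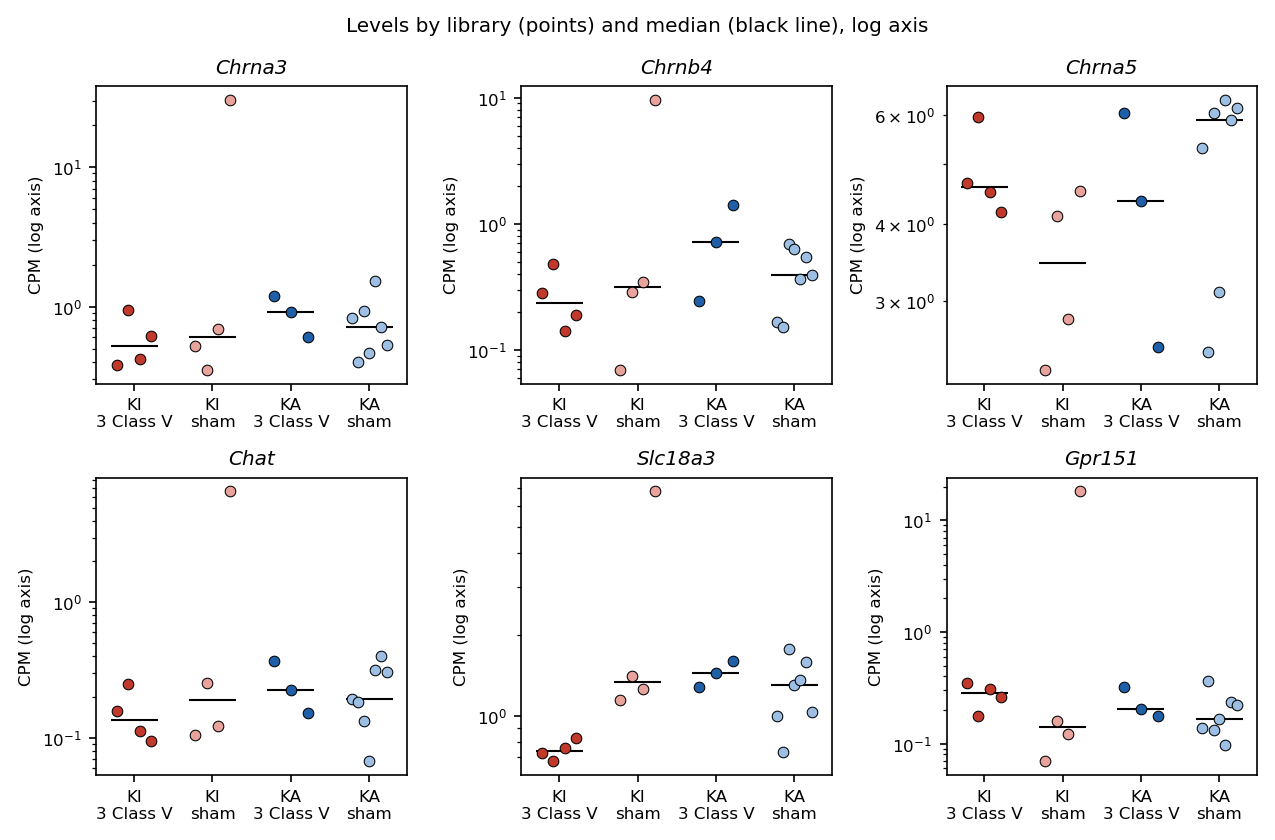
CPM on a log axis of Chrna3, Chrnb4, Chrna5, Chat, Slc18a3 and Gpr151 in each library (points), with the median of each group (black line). In 5 of the 6 panels 1 KI sham point, KI sham 4, lies far above all others, and for Chrna5 it does not.

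Chrna7 and Chrnb2 lay without overlap above the KI shams but did not pass. Chrna7, whose alpha-7 subunit forms channels of a single subunit type, had 24.9, 18, 27.5 and 20.2 CPM in KI 3 Class V and 1.94, 9.85, 13.2 and 14.1 CPM in KI sham (1.21 ± 0.41, edgeR adjusted p = 0.0619). Chrnb2, the beta-2 subunit and the nicotinic gene with the highest mean CPM, had 61.8, 46.3, 62.7 and 49.7 CPM in KI 3 Class V and 14.1, 31.1, 33.1 and 45.1 CPM in KI sham (0.84 ± 0.30, edgeR adjusted p = 0.0697). In both genes KI sham 1 was far below the other shams. Chrna4, the usual partner of beta-2 in the brain, differed by 0.11 ± 0.32, Chrna2 by 0.73 ± 0.25, Chrna5 by 0.49 ± 0.32, Chrnb1 by -0.36 ± 0.26 and Chrna1 by -0.04 ± 0.42. In the KA model 0 of the 9 passed, and the smallest p belonged to Chrna1, the muscle-type alpha subunit, with 0.320, 0.393 and 0.632 CPM in KA 3 Class V and 0.333 to 1.04 CPM in KA sham (-0.48 ± 0.41, edgeR adjusted p = 0.728).

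How far these calls held depended on the libraries included. Leaving out KI sham 4 gave 12 called members, all higher in KI 3 Class V: Drd5, Htr1a, Htr1b, Htr1f, Htr2a, Htr4, Htr5a, Hrh2, Chrm1, Chrm2, Chrna7 and Chrnb2. In that setting 4297 genes were called in all, against 1332 with every library, so the rise in calls was not particular to the receptors. Leaving out KI 3 Class V 1, 2 or 3 gave 0 called members in each case, where only 9 genes in all were called each time. The log2 fold change of Drd5 stayed between 1.99 and 2.42 over the 8 fits that left out 1 KI library (edgeR adjusted p from 0.0109 to 0.0897, called in 5), that of Htr2a between 1.62 and 2.26 (0.0176 to 0.0920, called in 5) and that of Htr1a between 0.72 and 1.10 (0.0171 to 0.120, called in 1).

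The difference between the models was tested directly as the KI change minus the KA change. Of 41 receptor genes 0 passed by edgeR, where 3.80% of all genes did, 0.652% higher and 3.15% lower. At an unadjusted p under 0.05 there were 12, 9 higher and 3 lower, against 20.5% of all genes. DESeq2 called 4, Drd5, Htr1a and Htr2a higher and Chrnb4 lower, against 8.39% of all genes, and limma-voom called 20, against 35.8%. The difference was 1.93 ± 0.65 for Drd5 (edgeR adjusted p = 0.111), 1.84 ± 0.65 for Htr2a (edgeR adjusted p = 0.126), 1.22 ± 0.40 for Htr1a (edgeR adjusted p = 0.104) and -3.96 ± 1.43 for Chrna3 (edgeR adjusted p = 0.131). Over the 18 fits that left out 1 library, the Chrna3 difference ran from -4.36 to -0.06. All 11 serotonin and all 5 muscarinic differences were above 0, with medians of 0.73 and 0.91, against -0.01 over all genes, and 32 of all 41 were above 0, against 49.2% of all genes. A rise in KI without a call in KA is therefore not shown by edgeR to differ between the models for any of these genes.

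The shams of the models were also compared. KI sham against KA sham gave 0 called receptor genes, where 0.00750% of all genes were called, and 6 at an unadjusted p under 0.05, against 8.63% of all genes. DESeq2, which gave an adjusted p to 5574 genes and to few of the receptors, called 0, against 0.179% of those genes, and limma-voom called 0, against 3.08% of all genes. Drd5 and Htr2a, called higher in the KI model, had negative estimates here, -0.91 ± 0.43 and -1.07 ± 0.43 (edgeR adjusted p = 0.564 for each). Drd5 had 0.450 to 1.82 CPM in KI sham against 1.30 to 5.44 CPM in KA sham, and Htr2a had 0.277 to 2.14 CPM in KI sham against 0.967 to 4.87 CPM in KA sham. Of the 41 estimates 10 were above 0, against 52.6% of all genes, and their median was -0.22, against 0.01 over all genes.

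Receptor levels moved with a measure of the library as a whole. A score over 88 genes named as ribosomal proteins, each gene's log2 CPM being centred on its own mean and the genes then averaged, ran from -0.49 to -0.19 in KI 3 Class V, from -0.34 to 0.69 in KI sham, from -0.12 to 0.09 in KA 3 Class V and from -0.48 to 0.97 in KA sham. The same score over the 41 receptor genes ran from 0.13 to 0.37 in KI 3 Class V and from -0.84 to 0.22 in KI sham, then from -0.01 to 0.05 in KA 3 Class V and from -0.56 to 0.40 in KA sham. Over the 18 libraries Pearson's r between them was -0.93 and Spearman's rho -0.98, and r was -0.93 without the 2 libraries most extreme in the ribosomal score. These points share library, depth and group, so the values are a description. Within the 7 KA shams r was -0.96 and rho -0.96, and the other groups had too few libraries. By transmitter, r was -0.94 for muscarinic, -0.84 for serotonin, -0.79 for adrenergic, -0.76 for dopamine, -0.74 for nicotinic and -0.53 for histamine genes. Without the same 2 libraries these were, in that order, -0.89, -0.85, -0.55, -0.56, -0.60 and -0.36.

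**Figure D5:**
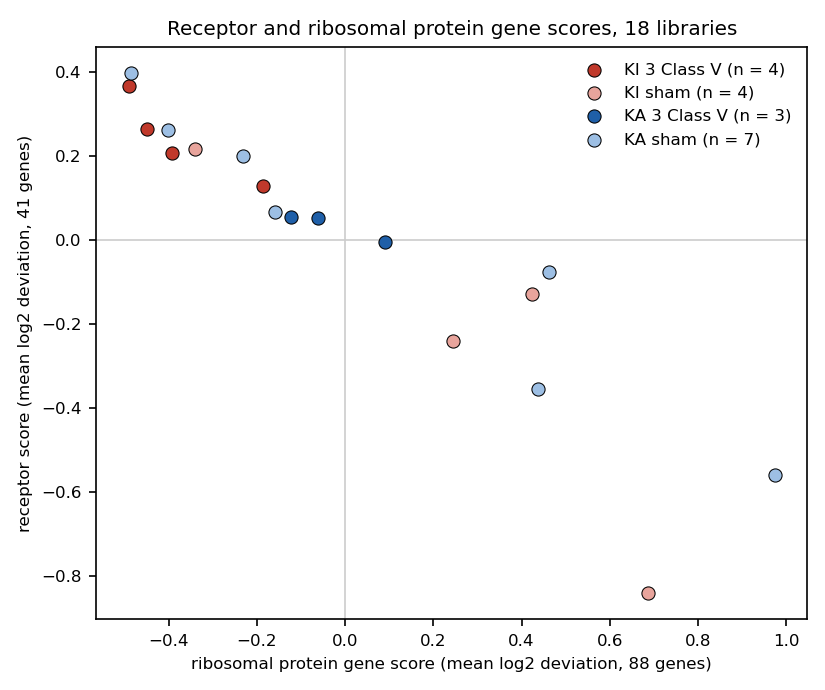
Receptor score (41 genes, vertical) against ribosomal protein gene score (88 genes, horizontal) in the 18 libraries, each as the mean log2 deviation from the mean of all libraries. The points descend from upper left to lower right, and the 4 KI 3 Class V libraries lie at the upper left, near KA sham 1, KA sham 6 and KI sham 4.

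With the ribosomal score as a covariate, 1 receptor gene was called in the KI model, Chrna3. Drd5 was then at 1.68 (edgeR adjusted p = 0.0724), Htr2a at 1.34 (0.122) and Htr1a at 0.57 (0.204), and the median over the 41 genes was 0.05. Marker lists also separated the KI groups. Summed microglial markers, 8 of 8 tested, were at 300.01 to 315 CPM in KI 3 Class V and 358 to 780 CPM in KI sham. Summed oligodendrocyte markers, 6 of 6, were at 9514 to 13436 CPM in KI 3 Class V and 15305 to 20480 CPM in KI sham, while those of pyramidal and granule cells, given above, lay without overlap above the shams. That sum was mostly Slc17a7, and the 7 other markers overlapped, at 904 to 1344 CPM in KI 3 Class V and 717 to 1377 CPM in KI sham. Their part in the receptor results was not tested. Between the KA groups, astrocyte markers, 6 of 6, were at 10673 to 13007 CPM in KA 3 Class V and 4659 to 8435 CPM in KA sham. Most of that sum was Gfap, and without it the sums overlapped, at 3190 to 3729 CPM in KA 3 Class V and 2395 to 3209 CPM in KA sham. The part of these markers in the values of Htr5b and Hrh1 was not tested.

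The genes around the receptors, from a list of 79 entries of which 73 were tested, gave 11 calls in the KI model, 9 higher and 2 lower, where 9.99% of all genes were called, and a median of 0.28. The count was 0 without KI 3 Class V 1, 2 or 3, 1 without KI sham 3, 3 without KI 3 Class V 4 or KI sham 2 and 25 without KI sham 4. Over all genes there were 9 calls in each fit without KI 3 Class V 1, 2 or 3, and 133 without KI sham 3. There were 527 without KI 3 Class V 4, 454 without KI sham 2 and 4297 without KI sham 4, so the list moved with all genes. With the ribosomal score as covariate the count over the list was 2, both lower, and 113 over all genes. None of the rises below was then called. Of 10 G protein alpha subunits, 2 rose, both inhibitory: Gnao1 by 0.68 ± 0.19 (edgeR adjusted p = 0.0403) and Gnaz by 0.63 ± 0.19 (edgeR adjusted p = 0.0458). Each was called in 1 of the 8 fits that left out 1 KI library. The inhibitory Gnai genes did not pass and went both ways: Gnai1 0.79 ± 0.26, Gnai2 -0.38 ± 0.12 and Gnai3 -0.21 ± 0.15. Gnai2 had 385 to 426 CPM in KI 3 Class V and 484 to 586 CPM in KI sham. Such groups without overlap, lower, made up 8.07% of all genes. Gnao1 had 410, 367, 416 and 359 CPM in KI 3 Class V and 153, 242, 248 and 324 CPM in KI sham, without overlap.

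Of 25 effectors 6 rose, where 4.74% of all genes were called higher. Over the 8 fits that left out 1 KI library, Pde4a was called in 4, Kcnj3, Plcb1, Pde10a and Adcy2 in 2 each and Kcnj6 in 1. Kcnj3 and Kcnj6 encode subunits of the potassium channels that Gi-coupled receptors open. Kcnj3 had 70.6, 60.9, 64.9 and 53.1 CPM in KI 3 Class V and 8.89, 29.7, 29.1 and 40.1 CPM in KI sham (1.21 ± 0.33, edgeR adjusted p = 0.0381), and Kcnj6 rose by 1.11 ± 0.32. Plcb1, the phospholipase C downstream of Gq, had 229, 208, 223 and 164 CPM in KI 3 Class V and 97.1, 87.9, 87.1 and 141 CPM in KI sham (0.997 ± 0.261, edgeR adjusted p = 0.0346). Pde10a and Pde4a, which break down cyclic nucleotides, rose by 0.92 ± 0.26 and 0.61 ± 0.15, and the adenylyl cyclase Adcy2 by 0.35 ± 0.10. In each of these 6 genes every KI 3 Class V library was above every KI sham library, which held for 12.1% of all genes. The 6 were picked by their calls in this same comparison, so the separation adds no support. KI sham 4 was the sham nearest to the KI 3 Class V libraries in 5 of the 6, all but Adcy2.

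Of 18 tested genes of receptor regulation, 1 rose, Ric3, a chaperone of nicotinic receptors, by 0.70 ± 0.17 (edgeR adjusted p = 0.0302), with 39.8, 41.4, 41 and 36.6 CPM in KI 3 Class V and 23.3, 21.9, 23.5 and 28.8 CPM in KI sham. The 2 genes that fell were the cholinergic genes named above, Chat (-3.53 ± 1.05, edgeR adjusted p = 0.0449) and Slc18a3 (-1.84 ± 0.47, edgeR adjusted p = 0.0333). Slc18a3 lies inside the Chat locus. Without KI sham 4 Chat was at -0.08 and Slc18a3 at -0.79. Slc18a3 had 0.724, 0.676, 0.760 and 0.827 CPM in KI 3 Class V and 1.14, 1.40, 1.25 and 6.81 CPM in KI sham. None of the 6 breakdown enzymes passed.

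In the KA model 0 of these 73 genes passed, and the smallest p was that of Lynx1, a membrane-anchored brake on nicotinic receptors (-0.46 ± 0.12, edgeR adjusted p = 0.128). For 2 of the 73 the difference between the models passed, where 3.80% of all genes did. Each of them was called in 5 of the 18 fits that left out 1 library. The count over the list was 0 to 5 in those fits, where 56 to 897 genes in all were called. Lynx1 had 388, 366, 393 and 403 CPM in KI 3 Class V against 374, 359, 339 and 269 CPM in KI sham, and 293, 276 and 277 CPM in KA 3 Class V against 318 to 480 CPM in KA sham (KI change minus KA change 0.66 ± 0.17, edgeR adjusted p = 0.0393). Plcb2, a phospholipase C best known from blood cells and taste cells, had 2.58, 2.48, 2.22 and 1.89 CPM in KI 3 Class V against 2.70, 3.60, 4.84 and 8.17 CPM in KI sham, and 5.27, 6.47 and 5.89 CPM in KA 3 Class V against 2.28 to 6.70 CPM in KA sham (-1.76 ± 0.47, edgeR adjusted p = 0.0467). Markers of the cell bodies that make these transmitters, a list of 10, varied in level. Slc6a2 and Slc6a3, the noradrenaline and dopamine transporters, reached at most 0.0282 and 0.184 CPM. Slc6a2 was at 0 in most libraries and Slc6a3 in KI sham 2. Tph2 had 2.03 to 8.90 CPM, and Slc5a7 had 13.6 CPM in KI sham 4 and 1.44 to 4.24 CPM elsewhere. The list summed to 6.90 to 7.80 CPM in KI 3 Class V against 10.7 to 32.7 CPM in KI sham. The 32.7 CPM was KI sham 4, and the next highest KI sham had 12.4 CPM. In the KA model the sums were 9.65 to 11.8 CPM in KA 3 Class V against 8.01 to 14.7 CPM in KA sham.

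The genes whose log2 CPM followed a called receptor most closely over the 18 libraries were named by Pearson's r, as a description of libraries that share group and depth. For Drd5 they were Acvr1c (0.95), Mark1 (0.94) and Trio (0.94), for Htr1a Epha3 (0.95), Ccdc85a (0.94) and Zeb2 (0.94), and for Htr2a Zfp382 (0.97), RGD1304884 (0.95) and Gad2 (0.95). Gad2, which makes the transmitter GABA in interneurons, had 111, 100, 115 and 97.1 CPM in KI 3 Class V and 8.75, 33.3, 40.6 and 58.6 CPM in KI sham, without overlap. Of the other interneuron markers, Gad1, Slc32a1 and Npy also lay without overlap above the KI shams, while Sst, Vip, Pvalb and Cck overlapped. Gad1 had 193 to 223 CPM in KI 3 Class V and 134 to 158.5 CPM in KI sham. Pvalb averaged 43.5 CPM in KI 3 Class V and 63.3 CPM in KI sham, where KI sham 1 had 120 CPM. Cck averaged 303 CPM in KI 3 Class V and 353 CPM in KI sham, where KI sham 1 had 520 CPM. The summed list, 8 of 8 tested, overlapped, with 1271 to 1428 CPM in KI 3 Class V and 651 to 1408 CPM in KI sham. For Chrna3, whose r rests on KI sham 4, they were Chat (0.90), Map3k6 (0.90) and Adamts7 (0.89).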

How the data were processed

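Per the labels' protocols, total RNA of the left hippocampus was made into NEBNext Ultra II libraries and sequenced as single-end reads of 110 bases. The submitters' processing notes name rat build rn6 and the tools HISAT2, featureCounts, Trimmomatic, FastQC and DESeq2. The deposited table holds raw counts per gene symbol, with no normalization. Not given in the sources used here are the annotation, the strand setting and the handling of reads with several matches, so reads of overlapping or near-identical genes may not be told apart. The 18 columns were matched to samples by library name, and totals were 30925368 to 49943021.

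The counts were fitted with edgeR 4.0.16 in R 4.3.3 (TMM factors, filterByExpr, 4 group means, robust quasi-likelihood F test, 14 residual degrees of freedom), two-sided, with Benjamini-Hochberg adjustment over 13338 genes and a threshold of 0.05. SE was taken as the size of the log2 fold change over the root of F. log2 CPM used a prior count of 2. The procedure was tested on simulated data. Each library was kept as 1 replicate. Chi-square over its degrees of freedom was 20.4 to 602.6 for the 36 pairs within groups, more than repeated sequencing of the same library would give. It cannot tell whether libraries share an animal. The SDs given with levels describe the spread between libraries.

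The members and gene lists were chosen with earlier results of these data known. Named with values were receptor genes called in any comparison, those with the smallest p in each transmitter group and model, those with the highest mean CPM, those next to the count rule, and called genes of the pathway list. Genes with groups that did not overlap, and genes high in KI sham 4, were added after their values were seen. Alternatives were DESeq2 1.42.0, limma-voom 3.58.1 with quality weights, RLE factors, other filters, each model fitted alone, a replicate block, the ribosomal protein score as covariate, and libraries left out. Promoter windows came from RefSeq (GRCr8). That annotation was otherwise used for names and neighbours, since the counts were made on rn6. A few genes that entered the counts and scores are not reported here by name.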

Additional observations from a re-analysis of the deposited data

Results flagged for a closer look

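In 9 of 126 groups of a gene's levels, 1 library lay far from the others of its group by Dixon's criterion, which chance alone meets in about 1 group in 20. KI sham 4 accounted for 4 of them. Chrna3 had 30.5 CPM there, against 0.351 to 0.688 CPM in the other KI shams, Chrnb4 had 9.67 CPM against 0.0692 to 0.344, and Chrnb3 had 5.01 CPM against 0 to 0.0638. Drd1 was low there, at 3.51 CPM against 5.20 to 5.31.

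KI sham 1 was low in Drd5, with 0.450 CPM against 1.60 to 1.82 in the other KI shams, and high in Chrm4, with 28.5 CPM against 19.3 to 20.6. KI 3 Class V 4 was low in Drd1, with 4.35 CPM against 5.41 to 5.57 in the other kindled libraries, and in Htr5a, with 5.48 CPM against 7.53 to 7.77. Htr2c had 89.9 CPM in KA sham 6, against 22.2 to 49.9 CPM in the other KA shams. Htr2c is abundant in choroid plexus, of which Ttr is a marker. Ttr had 25.1 CPM in KA sham 6 and 572 CPM in KA sham 3, where Htr2c had 48.3 CPM. The highest Ttr level was that of KI sham 4, at 887 CPM. Htr2c had 61.5 CPM in KI sham 4, the highest level among the KI shams. The part of choroid plexus in the Htr2c levels was not tested.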

How the results depend on the processing

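With every library, edgeR called 4 receptor genes in KI, 0 in KA, 0 for the difference between models and 0 between shams. In KI the count was 10 by DESeq2, 23 by limma-voom, 1 with the ribosomal score as covariate, 11 without KI sham 3 and 4 together, 0 without the 3 libraries rich in ribosomal RNA-like genes, and 0 to 12 leaving out 1 library. It was 2 without KI 3 Class V 4 or KI sham 3, 0 with the replicate block, and 3 to 5 under the remaining settings. In KA it was 1 by DESeq2 and by limma-voom and 0 to 0 leaving out 1 library. For the difference between models it was 4 by DESeq2, 20 by limma-voom, 2 with the ribosomal score and 0 to 2 leaving out 1 library, the 2 being called without KI sham 1 and including Chrnb4. Between shams it was 1 (Chrnb1) without KI sham 3 and 4 and 0 to 0 leaving out 1 library. The cause of these shifts was not tested. The settings without KI sham 1 and 4 and without the 3 libraries rich in ribosomal RNA-like genes were chosen after seeing the data. Those 3 libraries were KI 3 Class V 1, KI sham 2 and KA sham 4, and their levels of ribosomal RNA-like genes are not given here.

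Over all genes, the 1332 calls in KI became 2965 by DESeq2, 7355 by limma-voom, 759 with the model fitted alone, 113 with the ribosomal score, 3740 without KI sham 3 and 4, 2156 without KI sham 1 and 4, 17 without the ribosomal RNA-rich libraries and 9 to 4297 leaving out 1 library. The 23 in KA became 254, 725 and 205 by DESeq2, limma-voom and the ribosomal score, and 9 to 62 leaving out 1 library. The 507 for the difference between models became 1117, 4770 and 1021 by those 3 settings, 980 without KI sham 1 and 4 and 56 to 897 leaving out 1 library. The 1 call between shams became 10 by DESeq2, 411 by limma-voom, 625 without KI sham 3 and 4, 0 without the ribosomal RNA-rich libraries and 1 to 3 leaving out 1 library.

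Replicate numbers did not pair the samples (correlation of deviations from -0.166 to -0.0679 in KI and from -0.154 to 0.00907 in KA), and with the replicate block 0 receptor genes and 0 genes in all were called in KI and in KA.

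Signs turned in 13 of the settings of 41 named results. In KI, Chrna3 was at -4.14 to 0.15 leaving out 1 library (0.15 without KI sham 4), 0.44 without KI sham 3 and 4 and 0.14 without KI sham 1 and 4, Chrnb4 at -3.66 to 0.15 leaving out 1 library (0.15 without KI sham 4) and 0.57 without KI sham 3 and 4, and Adra2a at -0.037 with the ribosomal score. Chrna3 was at 0.23 for the difference between models without KI sham 3 and 4. In KA, leaving out 1 library gave -0.057 to 0.28 for Htr2a, -0.023 to 0.46 for Chrna3, -0.20 to 0.64 for Drd5 and -0.46 to 0.0029 for Htr1a, with the signs turned without KA 3 Class V 1 (Htr2a and Chrna3), KA 3 Class V 3 (Drd5 and Htr1a) or KA sham 4 (Htr2a, -0.041). Htr2a was at -0.058 without the ribosomal RNA-rich libraries. DESeq2 gave no adjusted p for Chrna3. The median over receptor genes ran from 0.05 to 0.57 in KI and from -0.18 to 0.04 in KA over the alternatives. With 3 to 7 libraries in a group, the spread between libraries limits these comparisons. The part of depth was not tested. Some called genes well inside the count rule had few reads in KI sham 1, such as Htr2a with 8 and Drd5 with 13.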
